A study of Mus musculus with 6 samples.

Results

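Lymphocyte marker genes were read on expression arrays of mouse hindlimb muscle. The set held 10 genes named by symbol: the CD3 chain genes Cd3d, Cd3e and Cd3g, the coreceptor genes Cd4, Cd8a and Cd8b1, the kinase gene Lck, the cytotoxic cell genes Nkg7 and Gzmb, and the B cell receptor gene Cd79b. Members were found as every probe whose platform annotation carries one of these symbols, which gave 15 probes for 9 of the 10 genes, out of 45281 probes and 19057 annotated genes on the array. No probe of the annotation used here carries the symbol Lck, so no value of Lck is given. Total RNA came from the tibialis anterior, the shin muscle, which is rich in fast fibres, of male mice aged 3 months. There were 3 arrays labelled wild type and 3 labelled PGC1b transgenic, meaning that the mice carry a transgene for PGC-1β, a transcriptional coactivator of mitochondrial genes encoded by Ppargc1b. The promoter of the transgene, the strain and whether each array is a separate animal are not given in the sources used here, and p-values therefore reflect how far these arrays spread, which can be technical spread alone.

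T lymphocytes recognise antigen through a receptor whose signal is carried by the CD3 chains, and the coreceptors CD4 and CD8 bring the kinase Lck to that complex. Natural killer cells and killer T cells store granzymes and other granule proteins, and B cells signal through the paired chains CD79a and CD79b. Resting skeletal muscle holds few lymphocytes, and they enter the tissue in injury, regeneration and inflammation. In RNA from whole muscle, more cells of a type and more RNA per cell cannot be told apart.

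Each array had 15338 to 17604 probes above background, defined as a detection p-value under 0.05 against the negative controls of that array. The lowest signal above background lay between 82.5 and 89.5 on the 6 arrays, and most member probes lay near it. The tissue label was checked with 14 skeletal muscle fibre genes, all of which were above background on every array. The genotype label was checked with Ppargc1b itself, whose probe read 497.2, 648.7 and 708.9 in wild type, against 281.3, 373.4 and 309.8 elsewhere, so it was lower, not higher, under the transgenic label (log2 change -1.32, SE 0.21, limma adjusted p = 0.000734). Which part of the mRNA that probe reads is not known here. Directions below therefore rest on the genotype labels, and the second group is called labelled transgenic. Transgenic array 2 stood apart from the other arrays in neutrophil genes: of 10 such genes with a probe, 9 had their highest signal there. Camp, encoding the antimicrobial peptide cathelicidin of neutrophil granules, read 699.2 on that array and 66 to 92.4 on the other 5, and values without it are given below.

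Of the CD3 chain genes, Cd3d and Cd3g rose on the labelled transgenic arrays, and Cd3e did not pass in the probe that stood for it. Cd3d encodes the δ chain and had unnormalized signals of 67.5, 59.6 and 72.5 in wild type, against 111.3, 133.5 and 86.1 on the labelled transgenic arrays. The groups did not overlap, and the gene was above background on 0 wild-type and 3 labelled transgenic arrays. After background correction and quantile normalization, its log2 signal went from 4.50 ± 0.13 to 5.58 ± 0.46 (SD, n = 3), a log2 change of 1.08 (SE 0.21, limma adjusted p = 0.0025). Since wild type was below background on every array, only a bound holds for the fold, and Cd3d was at least 1.26-fold higher. Such bounds compare the brighter mean with the higher of the lowest signal above background and the probe's own signal.

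Cd3g, encoding the γ chain, followed the same course at lower size. Its signals were 75.9, 80.6 and 66.2 in wild type, against 105.8, 115.3 and 90.4 on the labelled transgenic arrays, again without overlap. Its log2 signal went from 4.72 ± 0.24 to 5.46 ± 0.21 (SD, n = 3), a change of 0.74 (SE 0.16, limma adjusted p = 0.00404), and it was at least 1.17-fold higher. In the authors' processed values, set to at least 1 before log2, the Cd3g change was 2.57 and not past the threshold (limma adjusted p = 0.0607). The size of that change can depend on this floor.

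Cd3e encodes the ε chain, which pairs with both other chains, and its 2 probes were close to background. The brighter probe, ILMN_2784580, read 74, 82.7 and 88 in wild type, against 97.6, 105.4 and 92.8 on the labelled transgenic arrays, so the unnormalized groups did not overlap although the normalized ones did. Its log2 change was 0.34 (95% interval -0.02 to 0.70, limma adjusted p = 0.0951). Without wild-type array 3, the only wild-type array on which this probe was above background, the change was 0.48 (limma adjusted p = 0.0359), and without wild-type array 1 it was 0.18 (limma adjusted p = 0.296). The other probe, ILMN_1238847, read 69, 66.4 and 62.5 against 97.3, 92.8 and 81.1 and was above background on 2 labelled transgenic arrays, too few to enter the test. With no filter and every probe tested, its fitted change was 0.62 (SE 0.09, limma adjusted p = 0.00292), but its labelled transgenic mean lay below the lowest signal above background of the wild-type arrays, so no bound on a fold can be given.

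**Figure D1:**
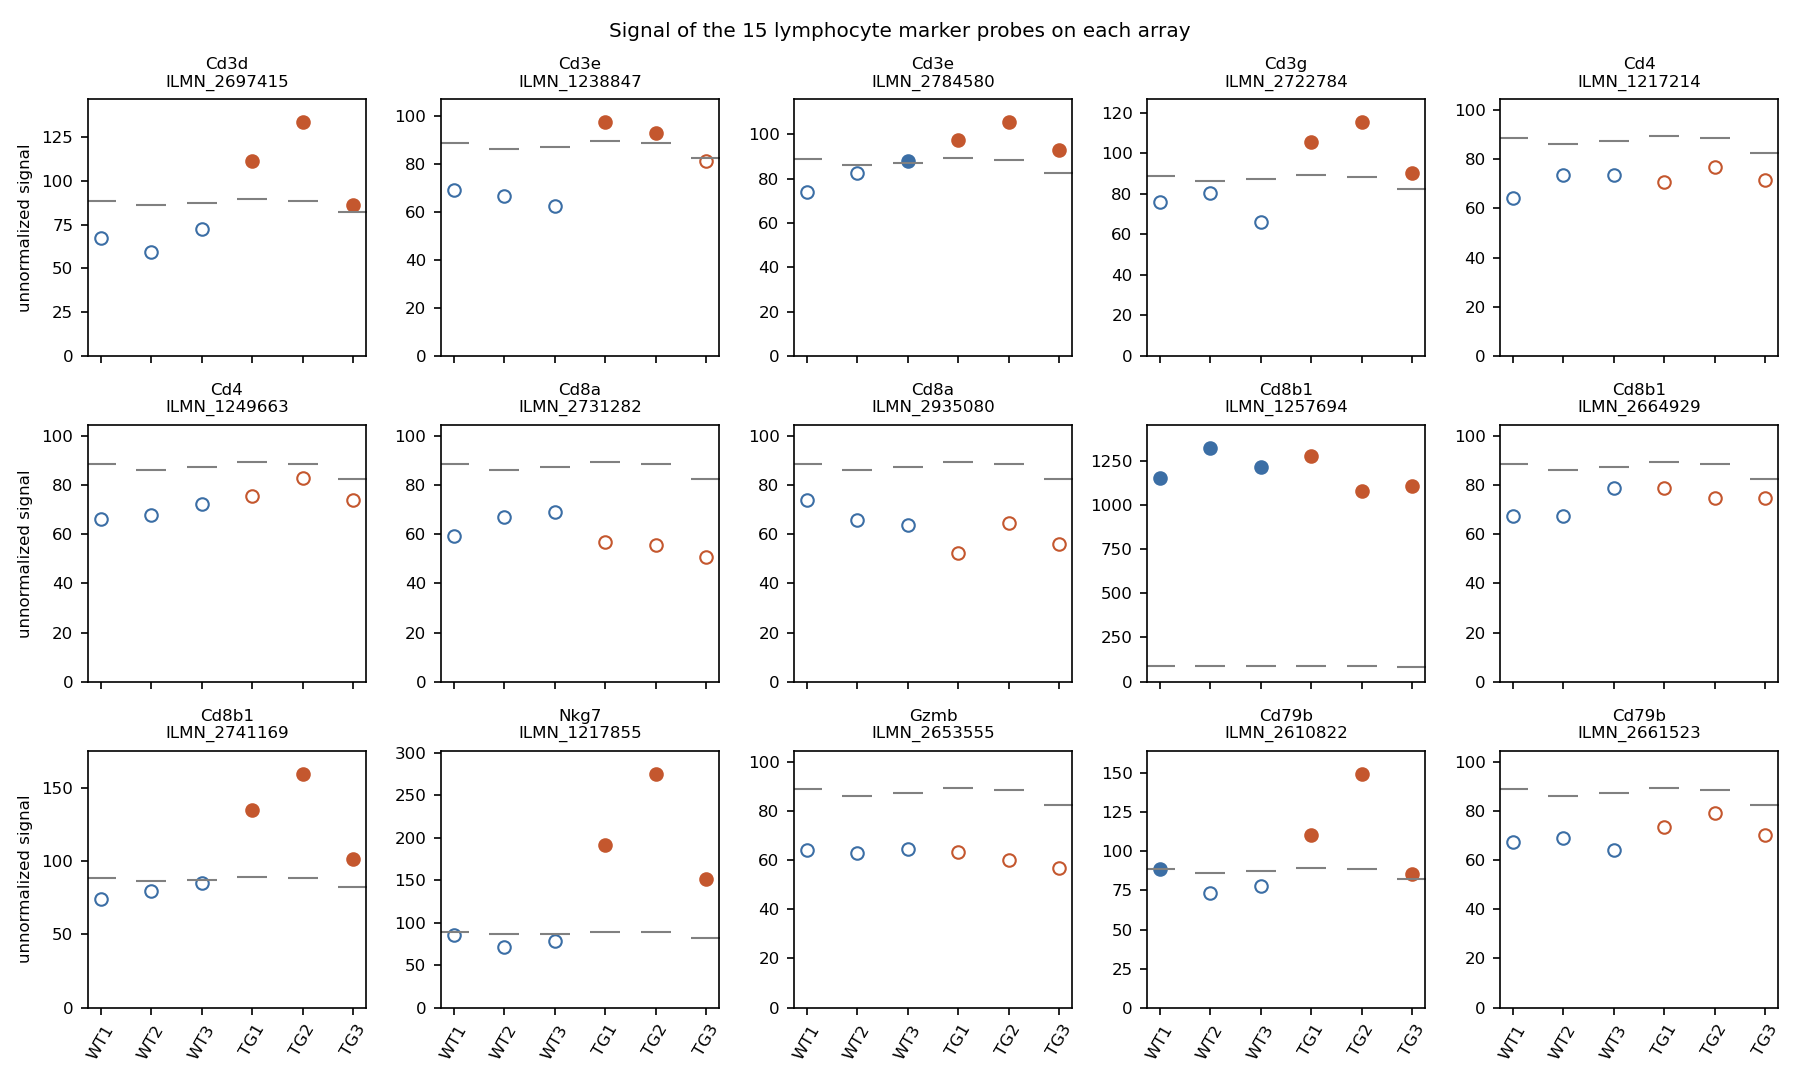
Unnormalized signal of each of the 15 member probes (vertical axis, linear from 0, a scale of its own in each panel) on the 3 wild-type arrays (WT, blue) and the 3 labelled transgenic arrays (TG, orange). Filled points are above background (detection p under 0.05), open points are not, and grey dashes mark the lowest signal above background on each array. Nkg7, Cd3d, Cd3g and Cd8b1 at ILMN_2741169 are open in wild type and filled on all 3 labelled transgenic arrays, while Cd4, Cd8a and Gzmb are open on every array.

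Because Cd3d, Cd3g and Nkg7 were the members that rose, their promoter windows are shown, from 250 bases before to 50 after the RefSeq start site in GRCm38.p6, written 5′ to 3′ on the strand of the gene. Capitals mark matches, on either strand, to AGGAAG, a core bound by ETS factors, and to TGTGGT, a core bound by RUNX factors, both families known for roles in lymphocytes.
Cd3d at chr9:44981536-44981835, plus strand: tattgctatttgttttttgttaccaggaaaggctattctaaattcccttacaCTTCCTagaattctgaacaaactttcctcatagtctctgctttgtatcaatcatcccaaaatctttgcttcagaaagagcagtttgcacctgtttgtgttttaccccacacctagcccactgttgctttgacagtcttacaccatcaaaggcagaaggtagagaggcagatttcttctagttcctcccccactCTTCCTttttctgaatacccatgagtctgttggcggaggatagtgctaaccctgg
Cd3g at chr9:44980382-44980681, minus strand: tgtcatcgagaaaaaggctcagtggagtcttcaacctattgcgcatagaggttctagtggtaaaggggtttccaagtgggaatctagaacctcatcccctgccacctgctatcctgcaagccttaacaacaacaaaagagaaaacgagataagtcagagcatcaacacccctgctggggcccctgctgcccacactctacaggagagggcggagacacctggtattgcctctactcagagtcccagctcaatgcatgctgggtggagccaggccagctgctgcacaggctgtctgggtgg
Nkg7 at chr7:43436888-43437187, plus strand: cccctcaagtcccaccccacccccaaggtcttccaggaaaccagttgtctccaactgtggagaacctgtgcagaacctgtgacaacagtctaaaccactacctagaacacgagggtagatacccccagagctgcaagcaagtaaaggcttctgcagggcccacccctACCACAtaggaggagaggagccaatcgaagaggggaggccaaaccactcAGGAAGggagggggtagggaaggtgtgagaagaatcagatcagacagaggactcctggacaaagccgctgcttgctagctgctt
Cd3g and Cd3d lie head to head, with 1355 bases between their start sites. The Cd3d window held 2 ETS matches and 0 RUNX matches, the Nkg7 window held 1 of each, and the Cd3g window held 0 of either. Among members that were not called, the Cd3e window held 2 ETS and 0 RUNX matches, the Gzmb window 0 and 2, and the Cd8a window 0 of either. The windows of Lck, which has no probe here, held 3 and 1 ETS matches and 1 and 0 RUNX matches. Among all 32851 windows of the table, 35.4% held AGGAAG and 16.8% held TGTGGT. TTCNNNGAA, the letters read by STAT factors, matched once each in the Cd3d, Nkg7 and Gzmb windows and in 8.3% of all windows. All letters were searched on both strands, and a match is a description of sequence and not a binding site. Of the 10 members, 7 had a window in the table.

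The coreceptor genes gave no common picture. Cd4, which marks helper T cells and in mouse also some myeloid cells, was not above background on any array at either of its 2 probes. ILMN_1249663 read 66.2, 67.7 and 72.2 in wild type, against 75.5, 83 and 74.1 on the labelled transgenic arrays, without overlap and with a log2 change of 0.19 (95% interval 0.01 to 0.38, limma adjusted p = 0.165 with no filter). ILMN_1217214 read 64.3 to 73.6 in wild type and 70.8 to 76.8 on the others, which overlapped.

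Cd8a, the CD8 chain shared by killer T cells and some dendritic cells, was also below background on all 6 arrays at both probes. ILMN_2731282 read 59.2, 66.9 and 68.9 in wild type, against 56.7, 55.8 and 50.7 on the labelled transgenic arrays, so it was lower there without overlap. Its change with no filter was -0.15 (95% interval -0.31 to 0.00, limma adjusted p = 0.187). The second probe, ILMN_2935080, read 73.9, 65.8 and 63.8 against 52.5, 64.5 and 56.2, with a change of -0.17 (limma adjusted p = 0.283 with no filter). A probe below background does not show that a gene is absent.

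Cd8b1, encoding the partner chain of CD8, had 3 probes, all annotated to the same RefSeq transcript, which disagreed. ILMN_1257694 was above background on every array, at 1152.8, 1320.2 and 1213.9 in wild type, against 1273.9, 1078.1 and 1106.7 on the labelled transgenic arrays, and these signals overlapped, while its normalized log2 values did not and were lower on the latter. As the brightest probe it stood for the gene, with a log2 change of -0.25 (SE 0.12, 95% interval -0.52 to 0.03, limma adjusted p = 0.109). With arrays scaled to the probes detected on all arrays, the change was -0.40 and past the threshold (limma adjusted p = 0.0214).

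ILMN_2741169 behaved like the Cd3d probe, with signals of 74.2, 79.6 and 85.1 in wild type, against 135, 159.5 and 101.8 on the labelled transgenic arrays. It was above background on 0 wild-type and 3 labelled transgenic arrays, and the groups did not overlap. With every kept probe tested on its own, its log2 change was 1.12 (SE 0.21, limma adjusted p = 0.00199), at least 1.73-fold. The third probe, ILMN_2664929, was below background on all 6 arrays, at 67.2 to 78.7 and 74.8 to 78.9. The mean of the 2 kept probes gave a change of 0.44 (limma adjusted p = 0.0186), opposite in sign to that of the brightest probe. The direction of Cd8b1 is therefore not settled by these probes. What the bright probe reads was not tested.

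Nkg7, a granule membrane protein gene of natural killer and killer T cells, had the largest change of the members. Its signals were 85.2, 71.6 and 77.9 in wild type, against 191.9, 275.2 and 151.8 on the labelled transgenic arrays, without overlap. It was above background on 0 wild-type arrays and on all 3 others. Its log2 signal went from 4.84 ± 0.26 to 6.997 ± 0.514 (SD, n = 3), a change of 2.16 (SE 0.25, limma adjusted p = 0.000124), and it was at least 3.39-fold higher. Gzmb, encoding granzyme B, the protease with which killer cells induce death of their targets, showed no such signal. It read 64.1, 63 and 64.6 in wild type, against 63.4, 60 and 56.7 on the labelled transgenic arrays, below background on all 6, with a change of -0.06 (95% interval -0.19 to 0.07) with no filter.

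Cd79b, the B cell receptor signalling chain, had a difference that did not pass the test. ILMN_2610822 read 89, 73.4 and 78.1 in wild type, against 110.5, 149.6 and 85.4 on the labelled transgenic arrays, and transgenic array 3 lay within the wild-type range. The probe was above background on 1 wild-type and 3 labelled transgenic arrays. Its log2 signal was 4.92 ± 0.32 in wild type and 5.65 ± 0.62 on the others (SD, n = 3), a change of 0.74 (95% interval 0.07 to 1.40, limma adjusted p = 0.0584). It passed in 6 of the 17 alternatives that tested it, among them at 0.92 without wild-type array 1 (limma adjusted p = 0.0412) and at 1.01 without transgenic array 3 (limma adjusted p = 0.0134). Without transgenic array 2 the change was 0.40 (limma adjusted p = 0.166). The second probe, ILMN_2661523, stayed below background on every array, at 67.3, 69.1 and 64.2 against 73.3, 79.1 and 70.

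**Figure D2:**
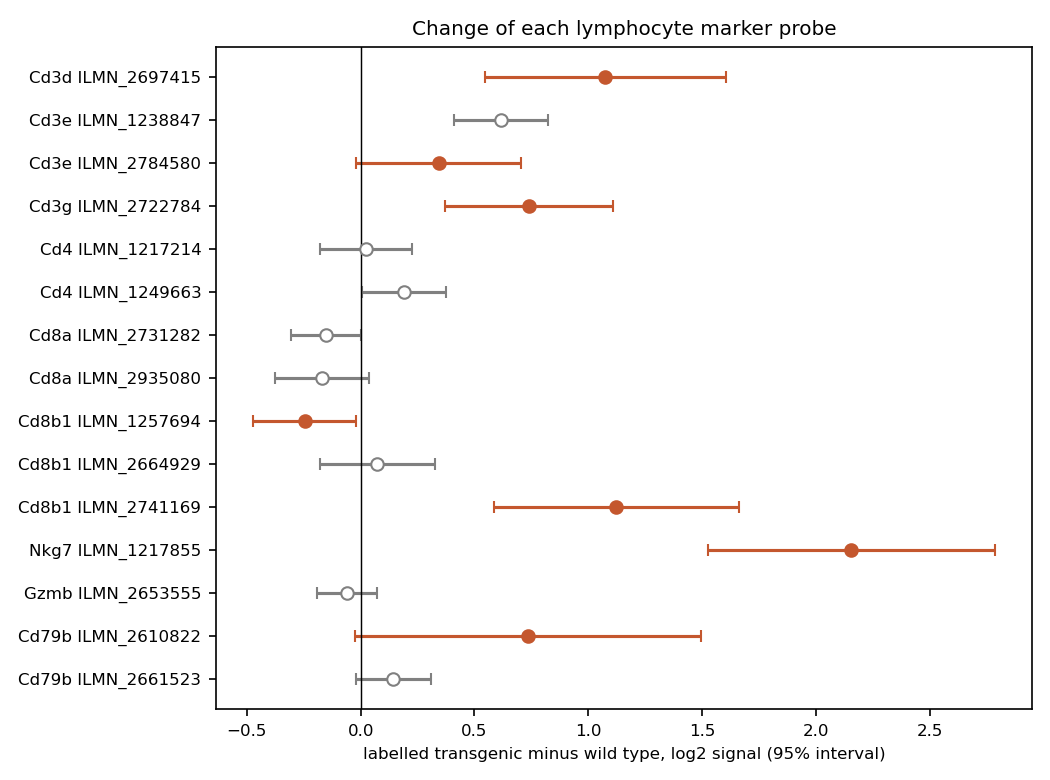
Change of each of the 15 member probes (labelled transgenic minus wild type, log2 signal, horizontal axis) with its 95% interval from limma fitted to every probe with no filter. Filled orange points passed the detection filter and open grey points did not. Nkg7 is farthest right at 2.16, and the 3 probes of Cd8b1 lie apart, at -0.25, 0.07 and 1.12.

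A probe was tested when it was above background on at least 3 of the 6 arrays, which 7 of the 15 member probes and 6 of the 10 members were. Of these 6 genes, 3 rose, 0 fell and 3 did not pass, where 28.1% of all 9978 genes tested rose, 28.2% fell and 56.3% did either. The same 3 genes had log2 values that were higher without overlap, as did 31.5% of genes tested. Cd8b1 was lower without overlap, and 63.8% of genes tested did not overlap in either direction. The median log2 change of the 6 was 0.74, or 0.34 with the 3 genes below background in wild type at their bound, beside -0.03 over all genes tested. Probe by probe, 4 of the 7 rose and 0 fell, where 25.5% of all kept probes rose and 53.4% passed either way. Cd3d, Cd3g and Nkg7 passed the filter only through the labelled transgenic arrays, as did the Cd8b1 probe ILMN_2741169. Cd3e and Cd79b, above background on 1 wild-type array each, would also not have passed without them. The counts and the median above therefore say little by themselves beside those of all genes. Of the 840 genes above background on 0 or 1 wild-type and on all 3 labelled transgenic arrays, a class that holds every tested member but Cd8b1, 72.6% rose. With no filter and every probe tested, 5 of the 15 member probes were higher and 0 lower, against 9.4% of all probes higher and 9.85% lower, or 19.2% either way. The 5 probes belonged to Nkg7, Cd3d, Cd3g, Cd3e and Cd8b1. Before normalization, 8 of the 15 member probes were higher without overlap and 1 was lower, against 20% and 8.73% of all probes. A probe above background on 0 wild-type and all 3 labelled transgenic arrays made up 4 of the 15 member probes and 2.39% of all probes. With 3 arrays a group, an exact two-sided permutation test of a single probe cannot go below p = 0.1.

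The labelled transgenic arrays differed among themselves in the same order for most of the member probes tested. Of these 7 probes, 6 were highest on transgenic array 2 and 5 were lowest on transgenic array 3. The bright Cd8b1 probe ILMN_1257694 was highest on array 3 and lowest on array 2. Among all 2801 genes that rose, 38.3% were highest on transgenic array 2 and 48.2% lowest on transgenic array 3. Over all genes tested, 29.6% were highest on transgenic array 2. Transgenic array 2 was also the array with the strongest neutrophil signal. S100a8, encoding a calcium-binding protein abundant in neutrophils, read 221.2, 127.1 and 100.5 in wild type, against 524.4, 5390.8 and 729.1 on the labelled transgenic arrays. Mpo, encoding the granule enzyme myeloperoxidase, read 600 on transgenic array 2 and 61 to 78.1 on the other 5. Slc4a1, the anion exchanger gene of red cells, read 655.7 on that array and 77.5 to 97.9 elsewhere.

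Without transgenic array 2, Nkg7 had a log2 change of 1.86 (limma adjusted p = 0.000172), Cd3d of 0.84 (limma adjusted p = 0.00492) and Cd3g of 0.63 (limma adjusted p = 0.0168). The probe ILMN_2741169 of Cd8b1 had 0.91 (limma adjusted p = 0.00608). All 4 probes were thus past the threshold without that array, with smaller changes. Cd79b was the member whose value moved most with it. Of 6 neutrophil genes tested, 3 still rose and 0 fell without transgenic array 2. S100a8 rose by 2.45, S100a9 by 1.31 and Retnlg by a fitted 1.70 (limma adjusted p = 0.00466, 0.0346 and 0.000283). The summed level of the neutrophil list went from 350 to 562 in wild type to 814 to 9549 on the labelled transgenic arrays, with Cxcr2 below background on all 6 arrays, and its part in the remaining difference of the members was not tested.

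**Figure D3:**
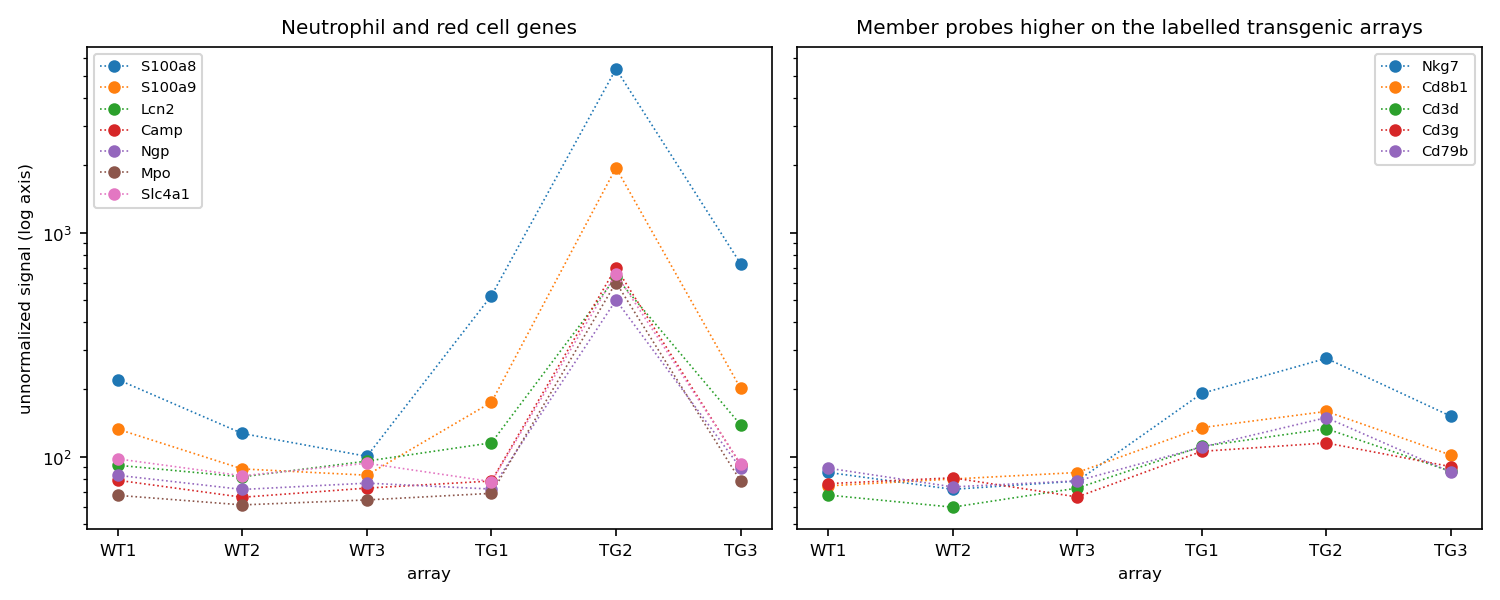
Unnormalized signal (log axis) of 7 neutrophil and red cell genes (left) and of 5 member probes (right, Cd8b1 at ILMN_2741169) on each array. Dotted lines only join the points of a gene. Camp, Ngp, Mpo and Slc4a1 stand out on transgenic array 2 alone, while Nkg7 reads 151.8 to 275.2 on all 3 labelled transgenic arrays.

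Other T cell genes moved both ways. Of 20 such genes with a probe, 7 were tested, of which 3 rose and 3 fell, and 9 were not above background on any array. Of all 19057 annotated genes 7624 were not, which stands beside such counts in the lists below. Their median log2 change was 0.23 (0.02 with bounds). Cd2, an adhesion receptor of T and natural killer cells, rose by 0.68 (at least 1.01-fold) and Il7r, the interleukin 7 receptor gene, by 0.67. Satb1, a chromatin organiser of thymocytes that was above background on every array, fell by 1.39, and Cd27, a costimulatory receptor gene, fell by 1.001. Gata3, a factor of T cell differentiation, rose by 0.66 (at least 1.104-fold, since it was below background in wild type). Foxp3, the factor that marks regulatory T cells, fell by 0.57 and was above background on every array. Satb1, Cd27, Foxp3 and Il7r had 2, 3, 4 and 5 probes, and only the brightest kept probe of each is given. What these probes read was not tested. The T cell genes Cd5, Cd96, Icos, Ctla4, Trat1 and Ms4a4b were all below background on the 6 arrays. Cd6 and Cd28, also not tested, were each above background on 0 wild-type and 2 labelled transgenic arrays. Ccr7 was above it on 1 and 1, and Lef1 on 1 and 0. Gata3, Foxp3 and the untested genes named here were picked out after their values were seen.

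The T cell receptor signalling genes with the largest changes are expressed in many blood cell types. Of 27 with a probe 13 were tested, 7 rose and 2 fell, and the median log2 change was 0.81 (0.62 with genes below background in a group at their bound). Ptpn6, the phosphatase SHP-1 of most blood cells, rose by 2.73, the actin regulator gene Coro1a by 2.72 and the exchange factor gene Vav1 by 2.29. Fyb, an adaptor gene, was at least 3.69-fold higher. Zap70, the kinase that binds phosphorylated CD3 chains, had a change of 0.62 (limma adjusted p = 0.0687), and Cd247, the ζ chain of the receptor, had -0.31 (limma adjusted p = 0.0611). Lat, Skap1, Themis, Ubash3a, Sit1 and Txk were below background on all arrays. Dock2 was above background on 0 wild-type and 2 labelled transgenic arrays, and Ptprc on 0 and 1. The genes that fell were Nfatc1 (-1.08) and Prkcq (-0.67), both above background on every array, at log2 9.64 and 9.05 in wild type. Nfatc1 had 6 probes, of which only the brightest kept one is given, and which cells these signals came from was not tested. Zap70, Cd247, Nfatc1, Prkcq, Dock2, Ptprc and the genes named as below background were chosen after their values were seen.

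In the cytotoxic and natural killer cell list, 24 genes had a probe, 7 were tested, 4 rose and 1 fell, and 13 were below background on every array. The median log2 change was 0.98 (0.28 with bounds). Ccl5, a chemokine gene of activated T cells and other cells, was at least 9.36-fold higher. Ctsw, encoding a protease of natural killer and killer T cells, was at least 2-fold higher. Klrd1, the CD94 receptor chain of natural killer cells, was at least 1.95-fold higher, and the chemokine gene Xcl1 at least 1.19-fold. Their limma adjusted p-values ranged from 1.72e-06 for Ccl5 to 0.000522 for Xcl1. Prf1, encoding the pore protein perforin, was above background on every array with a change of 0.14 (limma adjusted p = 0.34), and Gzmm fell by 0.57, a call lost when arrays were scaled to their median. Ncr1, Klrb1c, Eomes and Ifng were below background on all 6 arrays. Cst7, also not tested, was above background on 0 wild-type and 2 labelled transgenic arrays. Klrk1, Klrg1 and Cd160 were each above it on 0 and 1. Prf1, Gzmm and the untested genes named here were chosen after their values were seen.

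In the B cell list, 20 genes had a probe, 9 were tested, 7 rose and 0 fell. The 4 with the largest fitted changes were all below background in wild type. Cd72, an inhibitory B cell coreceptor gene, was at least 11-fold higher, the dendritic and B cell activation gene Cd83 at least 3.73-fold, Btk, a kinase gene of B cells and myeloid cells, at least 3.01-fold, and the receptor gene Tnfrsf13b at least 1.63-fold. Of the 20 genes, 8 were below background on all 6 arrays, among them Ms4a1 (CD20), Pax5, Blk, Cr2 and the antibody joining chain gene Jchain. Cd22, an inhibitory B cell receptor gene, was above background on 0 wild-type and 2 labelled transgenic arrays, Fcrla on 0 and 1, and Spib on 1 and 0. These untested genes were chosen after their values were seen. The median of the 9 was 1.13 on the log2 scale, or 0.52 with the 7 genes below background in wild type at their bound.

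Among lymphocyte-attracting chemokines, their receptors and adhesion genes, of 12 tested, 10 rose and 0 fell, with 1 lower when arrays were scaled to the probes detected on all arrays. Ccl4 was at least 10.3-fold and Cxcl10 at least 9.32-fold higher, Ccl5 was as above, and Cxcl9 rose by 3.36. Cxcl10 and Cxcl9 are interferon-induced ligands of the receptor CXCR3, whose gene Cxcr3 was above background on 2 labelled transgenic arrays and no wild-type array. The median of this list was 1.61 (1.57 with bounds).

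Markers of other blood cell types moved in the same arrays. Of 18 macrophage and myeloid genes tested, 17 rose and 0 fell (1 fell without transgenic array 2), with a median log2 change of 2.36 (2.31 with bounds), led by Mpeg1 (3.80), Lgals3 (3.64), Fcer1g (3.17) and C1qb (2.88). Their summed level went from 4032 to 4432 in wild type to 21102 to 35591 on the labelled transgenic arrays, with Itgam below background on all. Of 12 dendritic and plasmacytoid cell genes with a probe, 4 were tested, H2-Ab1, H2-Eb1, Cd74 and H2-Aa, and all 4 rose (median 2.48). The summed levels of that list were 2997 to 3550 and 13890 to 20533. Of the 12 genes, 6 were below background on all arrays, among them Itgax, Flt3, Xcr1 and Clec9a. Which cells the 4 signals came from was not tested. Of 6 mast cell genes tested, 5 rose and 0 fell (median 0.76), among them Mcpt4 by 0.80, Hdc by 0.79, Kit by 0.77 and Cpa3 by 0.75, with summed levels of 618 to 726 and 911 to 1234 and Ms4a2 below background. Of 6 neutrophil genes 3 rose and 0 fell, S100a8 by 3.54, S100a9 by 2.61 and Retnlg by at least 3.21-fold, with a list median of 2.05 (1.70 with bounds) that was 1.01 without transgenic array 2. Of 3 red blood cell genes 0 passed, with Slc4a1 at 0.98 (limma adjusted p = 0.408) and Alas2 at -0.65 (limma adjusted p = 0.148), and without transgenic array 2 there were 2 that fell. Of 14 muscle fibre genes 7 fell and 0 rose, among them Myh4 (-3.91), Actn3 (-3.61), Pygm (-2.46) and Ryr1 (-1.22), with 14 falling when arrays were scaled to the probes detected on all arrays. The part of these cell types in the lymphocyte values was not tested.

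**Figure D4:**
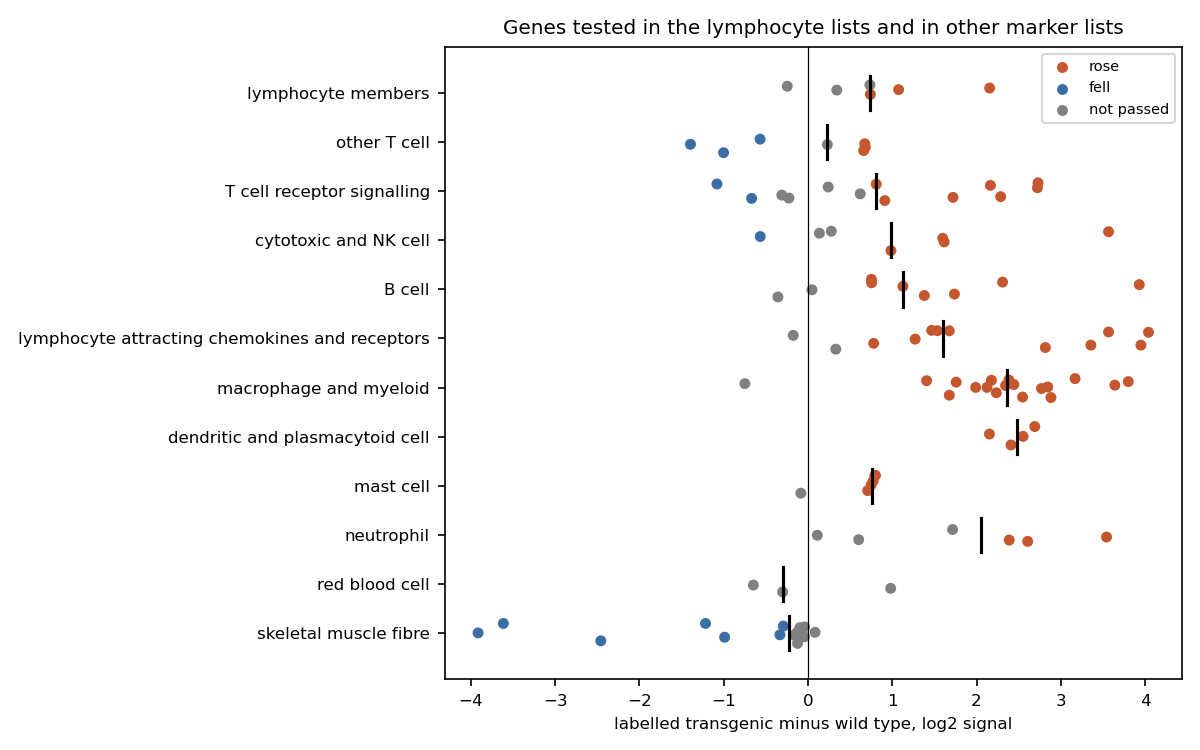
Change of each gene tested (labelled transgenic minus wild type, log2 signal) in the lymphocyte members and the other lists. Orange points rose and blue points fell at a limma adjusted p under 0.05, grey points did not pass, and black bars are list medians of fitted values. The members and the other T cell list have medians of 0.74 and 0.23, and the macrophage and myeloid list has 2.36.

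The mean log2 signal of the 6 members tested was followed across the 6 arrays most closely by Cd164l2, Tcstv1, Fermt3, Ces1f and Ffar2, with Pearson correlations of 0.997 to 0.999. The arrays fall into 2 groups, and 516 of 9972 genes had a correlation over 0.95, so this ranking describes these arrays only. Each of the 5 genes was above background on 0 wild-type and 3 labelled transgenic arrays. Fermt3, encoding the integrin regulator kindlin-3 of blood cells, was at least 2.58-fold higher (limma adjusted p = 0.000424). The fitted log2 changes of Cd164l2, Tcstv1, Ces1f and Ffar2 were 1.38, 0.83, 0.70 and 1.47. These were also past the threshold (limma adjusted p = 0.000577, 0.00168, 0.00332 and 0.000884).

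**Figure D5:**
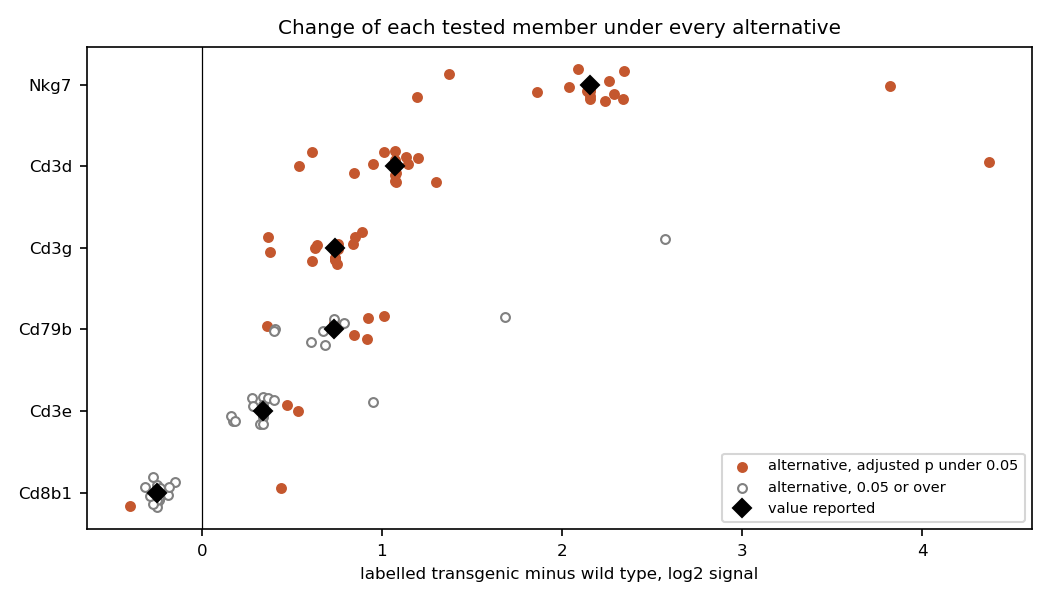
Change of the 6 tested members (labelled transgenic minus wild type, log2 signal) as reported (black diamonds) and under each processing alternative (circles, filled orange where the limma adjusted p was under 0.05). Nkg7 ranged from 1.20 to 3.82 and Cd3d from 0.54 to 4.37, past the threshold wherever tested, while Cd8b1 lay on both sides of 0. The upper ends of Nkg7 and Cd3d are from the authors' values, set to at least 1 before log2.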

How the data were processed

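RNA from each sample was read on 1 Illumina WG-6 v2 mouse array in a single colour, and arrays were grouped by genotype label. Per the file headers, the authors' unnormalized table pairs each probe's intensity with its detection p-value. GenomeStudio is named in the submitters' processing notes. The second table the authors deposited holds intensity values with a common minimum of -22.6 and maximum of 30836.5, as background subtraction and quantile normalization would give, but its settings are unknown here. The number of arrays limits the precision.

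Starting from the unnormalized intensities, limma 3.58.1 (R 4.3.3) was run with neqc (normexp with negative controls inferred from detection p-values, offset 16, quantile normalization, log2). A probe was kept if its detection p was under 0.05 on 3 or more of 6 arrays, and the brightest kept probe stood for its gene. Genotypes were compared with lmFit and eBayes, two-sided, adjusted by Benjamini-Hochberg over 9978 genes at 0.05. Fits at each probe used every kept probe, or every probe. Of 45281 probes, 34885 have 1 annotated symbol, 18 several and 10378 none, and 34807 matched RefSeq (GRCm38.p6) by Entrez ID, which changed 0 symbols.

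Members and lists were chosen with earlier results of these data known. Besides all members, the named genes of each list were the 4 called with the largest changes, or 2 by p where none was called. Cxcr3 and the genes named as below background beside other lists were chosen after their values were seen. Camp, Ngp and Mpo were not tested and were also named outside that rule. There were 11 other lists: other T cell, T cell receptor signalling, cytotoxic and natural killer, B cell, chemokine, macrophage, dendritic, mast cell, neutrophil, red cell and muscle fibre. Summed levels add normalized linear signals of the brightest probe of each gene. Same-numbered arrays of the groups did not deviate together (correlations -0.05, 0.03 and -0.00 across genes). Alternatives changed how background was corrected, how arrays were normalized, the filter, how probes were summarised, the variance model, weights of arrays, a replicate block, the arrays included and the table used. The BeadChip of each array is unknown here and was not fitted as a block.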

Additional observations from a re-analysis of the deposited data

How the results depend on the processing

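Counts for a gene cover the alternatives in which it was tested. Cd3d, Cd3g, Cd3e and Cd79b were not tested with detection on all 6 arrays or with detection p under 0.01, and Nkg7 was not with the former. Nkg7 kept its direction and call in 18 of 18 alternatives (1.20 to 3.82) and Cd3d in 17 of 17 (0.54 to 4.37). Cd3g did in 16 of 17 and missed the threshold in the authors' value table, as given above. The values 3.82 and 4.37 are also from that table, set to at least 1 before log2, and can depend on that floor. Cd79b passed in 6 and Cd3e in 2 of 17. Cd8b1 passed as lower with arrays scaled to detected probes (-0.40) and reversed to 0.44 with the mean of the kept probes, which averages probes that disagree. The members called were 3 of 6, beside 5613 of all 9978 genes tested. With arrays scaled to their median they were 5 of 6, beside 5379 of 9978 genes. That scaling moved the median change of all genes from -0.03 to 0.19 and the share of calls that were higher from 49.9% to 70.1%. With detection on all 6 arrays they were 0 of 1 tested, beside 4868 of 8173 genes. With detection p under 0.01 they were 1 of 2 tested, beside 5358 of 8764 genes. Fewer genes were tested in these last settings. With no filter and 1 probe a gene they were 3 of 9, beside 5541 of 19057 genes. With no filter and every probe as a feature, a setting chosen after seeing the data, 5 members were called and 8716 probes in all. With every kept probe as a feature 9168 probes were called, against 5613 genes, since more features were tested. Leaving out each array in turn gave 4958 to 5339 genes and 3 to 4 members called. The probe ILMN_2741169 of Cd8b1, also followed after seeing the data, ranged from 0.91 to 1.34 and passed each time. With the replicate block, which the arrays' numbers do not support as a pairing, 5337 genes and 3 members were called. Depth has no meaning here, and signals near background limit what can be read: 7 of the 15 member probes were above background on no array, as were 54.8% of all probes.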
